A study of Homo sapiens with 12 samples.

Results

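The 39 HOX genes of the 4 human HOX clusters were followed in 12 RNA-seq libraries of MiaPaca2 cells. They were chosen as the protein-coding genes of GENCODE whose symbol is HOXA, HOXB, HOXC or HOXD followed by a number, and were found by Ensembl identifier among the 63677 identifiers of the count tables. The HOXA cluster holds 11 of them, HOXB 10, HOXC 9 and HOXD 9. MiaPaca2 is an established human line of pancreatic ductal adenocarcinoma (PDAC) that the study describes as resistant to Vitamin D, and its genotype is given as wild type. Unprimed cells received DMSO (Con) or 1 µM CPT, the Vitamin D analogue calcipotriol. Primed cells received 2 mM GTA together with 1 µM 5-Aza, either without CPT (GTA+5-Aza) or with 1 µM CPT (CPT+GTA+5-Aza). All 4 groups were treated for 24 h and hold 3 libraries each. GTA is glyceryl triacetate, a source of acetate for histone acetylation, and 5-Aza is 5-Aza-2′-deoxycytidine, an inhibitor of DNA methylation. Both were always given together, so the part of each cannot be told apart.

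HOX genes encode homeodomain transcription factors that give cells their position along the body axis. Within a cluster the genes lie in a row, and genes with low numbers (3′ end of the cluster) are used earlier and further forward in the embryo than genes with high numbers (5′ end). Genes that carry the same number in different clusters are paralogs. Clusters or parts of clusters that a cell does not use are kept silent by Polycomb proteins, and in cancers their CpG-rich promoters are often DNA methylated.

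Total counts per library ran from 16162490 to 21224665. Those of the primed groups (16162490 to 19705638) reached lower than those of Con (19281290 to 21224665) and CPT (18476768 to 20564807), but overlapped both. Where a library has no count of a gene, up to 3 counts remain possible, which is 0.143 to 0.184 CPM (counts relative to the library total, scaled by the TMM method of edgeR), and this limit covers counting error only. In each of the 12 libraries more identifiers held a count of 4 (727 to 916) than a count of 3 (568 to 711), so counts this low were not read as so many separate RNA fragments. The epithelial keratins KRT8 (1410 to 1740 CPM), KRT18 (643 to 853 CPM) and KRT19 (28.3 to 41.4 CPM) were present in all libraries. So was the ductal factor SOX9 (149 to 231 CPM). The epithelial adhesion genes CDH1 (at most 0.245 CPM) and EPCAM (at most 0.0528 CPM) were near 0, and VIM, a mesenchymal filament, was at 5300 to 6590 CPM. Markers of leukocytes (PTPRC, at most 0.213 CPM), endothelium (PECAM1, 0 counts) and hepatocytes (ALB, 0 counts) were at or near 0. The fibroblast markers COL1A1 (0.0476 to 2.2 CPM) and ACTA2 (at most 1.21 CPM) were low, with counts in 12 and 11 libraries. The labels do not say whether the 3 libraries of a group came from separate cultures, so P values measure the spread between these libraries, which may be technical. Fewer cells using a gene and less RNA per cell cannot be told apart in such bulk samples.

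HOX expression in these cells came almost wholly from the HOXB cluster. Of the CPM summed over the 39 genes, HOXB genes held 92% to 94.2% in every library, HOXC genes 3.23% to 4.55%, HOXA genes 2.07% to 3.84% and HOXD genes 0% to 0.265%. A count in any library was seen for 9 of 10 HOXB genes, 10 of 11 HOXA genes, 6 of 9 HOXC genes and 7 of 9 HOXD genes. HOXA6, HOXB1, HOXC10, HOXC11, HOXC13, HOXD4 and HOXD11 had 0 counts in all 12 libraries.

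Levels between genes were compared as CPM per kb of exon. HOXB8 was highest with 40.2 ± 2.41 CPM per kb (mean ± SD over 12 libraries), followed by HOXB9 with 35.6 ± 2.57. HOXB6 followed with 21.5 ± 1.89, then HOXB2 with 18.1 ± 2.08, HOXB7 with 12.8 ± 1.86 and HOXB5 with 10.4 ± 1.02 CPM per kb. HOXB8 was above HOXB9 in all 12 libraries although their ranges over libraries touched, whereas the ranges of HOXB9 and HOXB6 did not overlap. HOXB6 shares 32.9% of its exon bases with other genes, and with only its unshared bases as length its mean was 32.1 CPM per kb and its range overlapped that of HOXB9. HOXB7 and HOXB5 were less clearly ordered, with HOXB7 higher in 10 of 12 libraries. A gap without overlap then separated HOXB5 from the next genes. These were HOXC8 (4.35 ± 0.566 CPM per kb), HOXB3 (4.05 ± 0.543), HOXB13 (2.88 ± 0.406) and HOXB4 (1.86 ± 0.362). HOXC8 and HOXB3 did not differ beyond their spread, with HOXC8 higher in 7 of 12 libraries and HOXB3 higher on average (4.59 against 4.35) when only exon bases free of any other gene were used as length. HOXA11 was the highest HOXA gene with 1.62 ± 0.499 CPM per kb, and HOXC6, HOXA3, HOXA13 and HOXA2 lay between 1.17 and 0.398. The most abundant HOXB genes were thus those of paralog groups 2 and 5 to 9, with groups 3, 4 and 13 lower and the most 3′ gene of the cluster, HOXB1, at 0 counts.

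**Figure D1:**
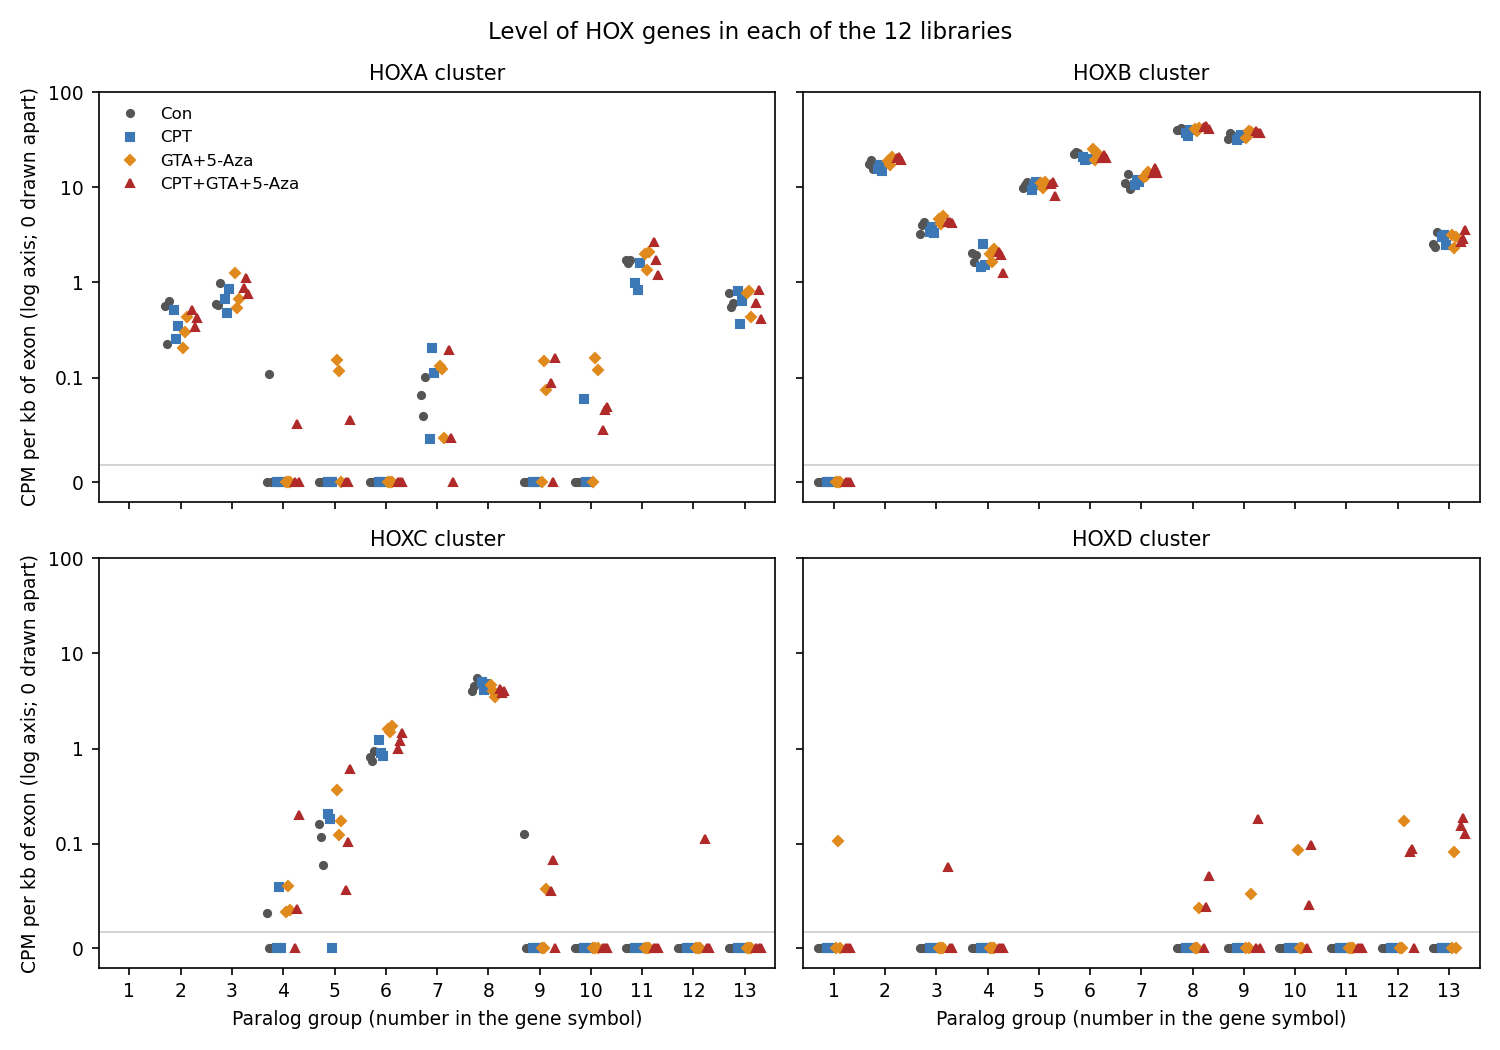
Level of HOX genes in CPM per kb of exon (log axis, with values of 0 drawn below the grey line) against its paralog group, 1 panel per cluster and 1 point per library, with colour and shape giving the 4 groups. HOXB genes of groups 2 and 5 to 9 lie near or above 10 CPM per kb in all libraries, most HOXA and HOXC genes lie near or below 1, and HOXD points above 0 belong to the primed groups alone.

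HOXB8, a trunk patterning factor, had 95.4, 96.2 and 100.2 CPM in Con, 89.4, 83.2 and 96.0 CPM in CPT, 97.2, 94.8 and 100.7 CPM in GTA+5-Aza, and 103, 104.5 and 97.7 CPM in CPT+GTA+5-Aza. All CPT+GTA+5-Aza libraries lay above all CPT libraries, and Con and GTA+5-Aza overlapped. HOXC8, its paralog, had 9.72, 11 and 13.5 CPM in Con, 12, 9.88 and 11.4 CPM in CPT, 11.2, 9.66 and 8.52 CPM in GTA+5-Aza, and 10.2, 9.30 and 9.73 CPM in CPT+GTA+5-Aza. Its primed and unprimed groups overlapped with and without CPT, and in primed against unprimed cells its log2 fold change of -0.20 ± 0.11 (SE) did not pass the test (adjusted p = 0.174, edgeR's quasi-likelihood test, Benjamini-Hochberg). HOXA11, a limb and reproductive tract patterning factor, had 4.62, 4.28 and 4.57 CPM in Con, 2.64, 2.21 and 4.25 CPM in CPT, 5.28, 3.65 and 5.53 CPM in GTA+5-Aza, and 7.12, 4.59 and 3.18 CPM in CPT+GTA+5-Aza. All 3 CPT libraries were below all 3 Con libraries, and the primed groups overlapped both. HOXA11 was not called in CPT against Con, with a log2 fold change of -0.57 ± 0.28 (unadjusted P = 0.0541, edgeR's quasi-likelihood test). Of its exon bases, 27.2% are shared with the antisense gene HOXA11-AS, which had 3.11 to 5.69 CPM, and as no strand setting is given for the counting the counts of both are uncertain.

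Priming was compared without CPT (GTA+5-Aza against Con) and with it (CPT+GTA+5-Aza against CPT), pairs that share no library, and over all 12 libraries (6 primed against 6 unprimed), which uses the same libraries again. The filter on low counts left 17123 genes, among them 16 HOX genes, 5 of the HOXA cluster, 9 of HOXB and 2 of HOXC. No HOXD gene passed it. A gene was called when its adjusted p was under 0.05 by edgeR's quasi-likelihood test, after Benjamini-Hochberg adjustment across the 17123 genes.

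Without CPT, 1 of the 16 HOX genes was called, HOXC6, which was higher in primed cells, where 17.5% of all tested genes were called (9.95% higher and 7.53% lower). With CPT, 1 was called, HOXB2, also higher, where 17% of all genes were called (9.57% higher and 7.39% lower). Over all 12 libraries, 4 were called, HOXB2, HOXB3, HOXB7 and HOXC6, all higher, where 30.9% of all genes were called (16.8% higher and 14% lower). These shares of 6.25%, 6.25% and 25% for HOX genes were below the shares over all genes in each comparison. Among calls in the higher direction alone, however, the 25% over all libraries was above the 16.8% of all genes. The median log2 fold change of the 16 genes was 0.06 without CPT, 0.18 with CPT and 0.07 over all libraries, and that of all tested genes was 0.01 in each. An unadjusted P under 0.05 was reached by 2 of the 16 without CPT (29.4% of all genes), by 7 with CPT (29.3%) and by 6 over all libraries (40.1%). This HOX share was above that of all genes with CPT and below it in the other comparisons. The study's rule for differentially expressed genes asks for a change significantly above 1.5-fold, with P below 0.05. Whether that P was adjusted is not said. The rule was applied here as more than a 1.5-fold change together with an unadjusted P below 0.05 against no change. HOXC6 passed it without CPT (8.44% of all genes passed) and over all libraries (9.6%). With CPT, 2 of the 16 passed it, HOXA11 among them, a larger share than the 8.67% of all genes. None of these differences in share was tested.

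HOXC6, a thoracic patterning factor (ENSG00000197757, GRCh38, chromosome 12 from 53990624 to 54030823, plus strand), had the largest difference among the called HOX genes. Its counts were 54, 54 and 67 in Con, 77, 64 and 53 in CPT, 105, 103 and 106 in GTA+5-Aza, and 65, 74 and 83 in CPT+GTA+5-Aza. All 3 GTA+5-Aza libraries lay above those of Con and of the other groups, while the CPT+GTA+5-Aza libraries overlapped those of CPT. Its level was 2.89 ± 0.345 CPM in Con and 5.58 ± 0.413 CPM in GTA+5-Aza (SD, n = 3 each), 1.93-fold higher, with a log2 fold change of 0.95 ± 0.24 (SE, 95% interval 0.46 to 1.44) and adjusted p = 0.00598 by edgeR's quasi-likelihood test. With CPT it was 3.42 ± 0.711 CPM without priming and 4.23 ± 0.824 CPM with it, a log2 fold change of 0.30 ± 0.24 (95% interval -0.19 to 0.80, adjusted p = 0.442 in the edgeR fit). The difference between these responses, the interaction of CPT and priming, was -0.64 ± 0.34 on the log2 scale (95% interval -1.34 to 0.05) and did not pass the test (unadjusted P = 0.0674, adjusted p = 1 in the edgeR fit). Thus HOXC6 was not shown to respond differently with CPT. Over all 12 libraries its log2 fold change was 0.63 ± 0.17 (adjusted p = 0.00529 in the edgeR fit). Of the exon bases of HOXC6, 16.1% are shared with HOXC9, HOXC4, the antisense gene HOXC-AS2 or the long noncoding gene ENSG00000273046. In a library these had at most 4, 9, 1 and 0 counts.

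HOXB2, HOXB3 and HOXB7 differed by less, 1.17-fold to 1.23-fold over all 12 libraries. HOXB2, a hindbrain patterning factor (ENSG00000173917, chromosome 17 from 48540894 to 48545109, minus strand), had 43.1, 47.5 and 38.6 CPM in Con, 38.5, 42 and 36.5 CPM in CPT, 46.4, 42.1 and 51.1 CPM in GTA+5-Aza, and 49.7, 51.2 and 47.8 CPM in CPT+GTA+5-Aza. The CPT and CPT+GTA+5-Aza libraries did not overlap, while those of Con and GTA+5-Aza did. Its log2 fold change was 0.34 ± 0.10 with CPT (95% interval 0.15 to 0.54, adjusted p = 0.0138, edgeR's quasi-likelihood test), 0.11 ± 0.10 without CPT (adjusted p = 0.491) and 0.23 ± 0.07 over all libraries (adjusted p = 0.0115). The difference between both responses was 0.23 ± 0.14 (unadjusted P = 0.0974, edgeR) and did not pass the test. Its call with CPT was lost when CPT replicate 1, CPT replicate 3 or CPT+GTA+5-Aza replicate 2 was left out (adjusted p = 0.0544, 0.0622 and 0.0575 in the edgeR fit).

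HOXB3, which acts in the hindbrain and pharyngeal region (ENSG00000120093, chromosome 17 from 48548870 to 48604912), had 23.7, 29.5 and 32.3 CPM in Con, 25.3, 28.7 and 24.3 CPM in CPT, 34.2, 30.4 and 37.1 CPM in GTA+5-Aza, and 31.9, 31.9 and 31.6 CPM in CPT+GTA+5-Aza. Con and GTA+5-Aza overlapped through 1 library each, and the 2 groups with CPT did not overlap. Over all 12 libraries the log2 fold change was 0.27 ± 0.08 (adjusted p = 0.0127, edgeR's quasi-likelihood test), with 0.25 ± 0.11 without CPT and 0.29 ± 0.12 with it, neither called. Without Con replicate 1 the adjusted p over all libraries was 0.0572 (edgeR). Of its exon bases, 11.7% are shared with HOXB4, HOXB6, HOXB-AS1 or HOXB-AS3.

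HOXB7, a trunk patterning factor that has been studied in several carcinomas (ENSG00000260027, chromosome 17 from 48607232 to 48633572), had 16.7, 20.9 and 14.6 CPM in Con, 16.1, 18.3 and 17.4 CPM in CPT, 19.3, 20.1 and 22.2 CPM in GTA+5-Aza, and 21.5, 24.2 and 21.4 CPM in CPT+GTA+5-Aza. All primed libraries with CPT lay above all CPT libraries, and Con overlapped GTA+5-Aza through its highest library. The log2 fold change was 0.30 ± 0.09 over all libraries (adjusted p = 0.0123, edgeR's quasi-likelihood test), 0.24 ± 0.13 without CPT (adjusted p = 0.228) and 0.37 ± 0.13 with CPT (adjusted p = 0.0502, just above the threshold). With CPT it was called by DESeq2, with library size alone, with a stricter filter on low counts and with a replicate block. Without Con replicate 3, the calls of HOXB2 and HOXB7 over all libraries were lost (adjusted p = 0.052 and 0.0537, edgeR). No exon base of HOXB7 is shared with another gene.

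**Figure D2:**
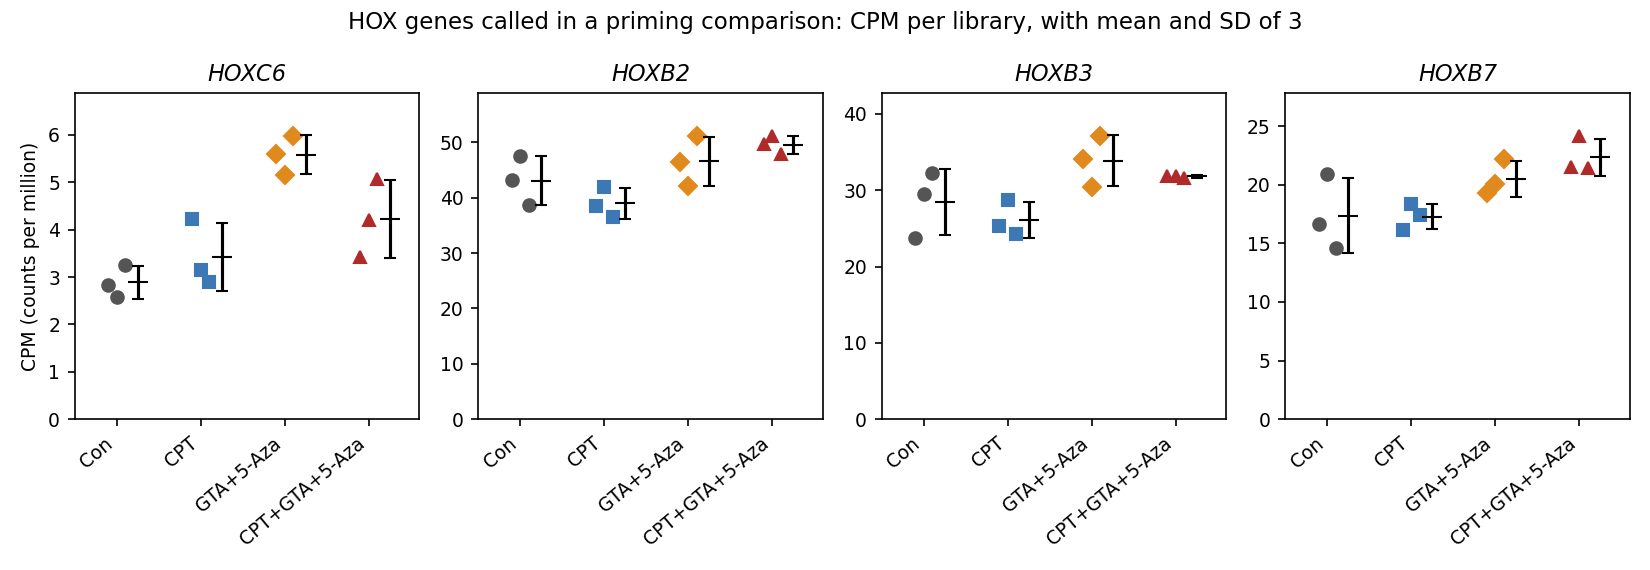
CPM of the 4 called HOX genes in each library (points) by group, with the mean and SD of 3 libraries beside them, on axes that start at 0. HOXC6 stands highest in GTA+5-Aza (5.58 CPM on average against 2.89 in Con), while HOXB2, HOXB3 and HOXB7 shift by small steps and their Con and GTA+5-Aza points overlap.

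The most abundant HOXB genes gave narrow intervals around small differences. HOXB8 had a log2 fold change of 0.00 without CPT (95% interval -0.14 to 0.15) and 0.18 with it (0.04 to 0.33, adjusted p = 0.0667, edgeR's quasi-likelihood test). HOXB9 had 0.07 without CPT (-0.09 to 0.22) and 0.18 with it (0.02 to 0.34, adjusted p = 0.105 in the edgeR fit). HOXB6 had -0.03 without CPT (-0.21 to 0.15) and 0.06 with it (-0.12 to 0.24). For these 3 genes the bounds of both comparisons stayed within 0.34 of 0 on the log2 scale. The HOXA genes were measured less precisely. HOXA11 had a log2 fold change of 0.72 ± 0.28 with CPT (1.65-fold, unadjusted P = 0.0169, adjusted p = 0.0807, edgeR) and 0.10 ± 0.27 without it. Its primed levels were alike, 4.82 CPM in GTA+5-Aza and 4.97 CPM in CPT+GTA+5-Aza. The unprimed levels were 4.49 CPM in Con and 3.03 CPM in CPT.

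**Figure D3:**
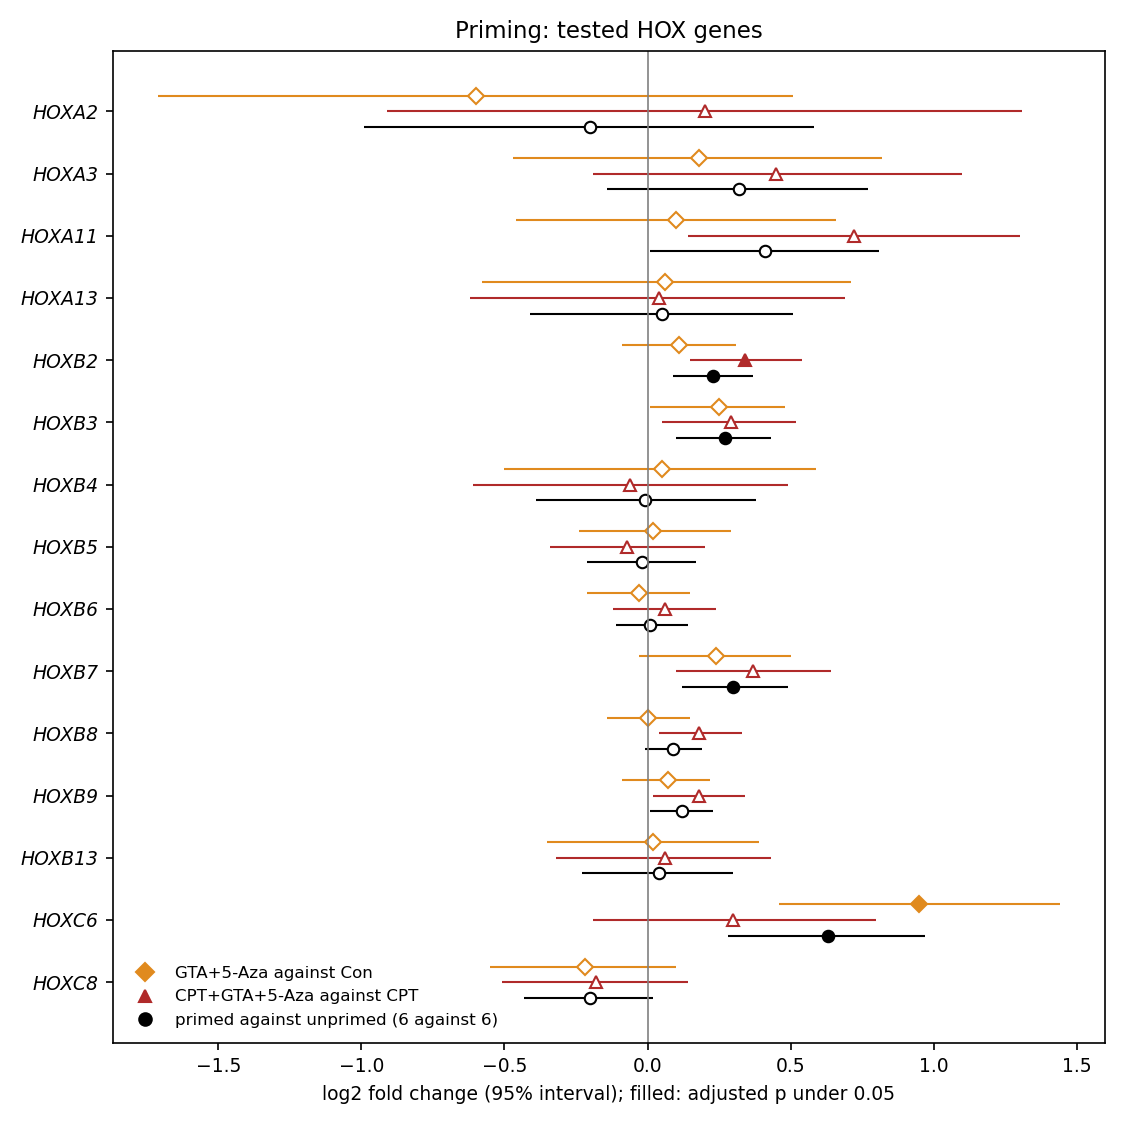
Log2 fold change with its 95% interval for tested HOX genes in the comparisons of priming without CPT (diamonds), with CPT (triangles) and over all 12 libraries (circles). Filled symbols have an adjusted p under 0.05, and the called values lie between 0.23 (HOXB2, all libraries) and 0.95 (HOXC6, without CPT).

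CPT was compared with DMSO in unprimed cells and in primed cells. In CPT against Con, 0 of the 16 HOX genes were called by edgeR's quasi-likelihood test or by DESeq2, where edgeR called 0% of all genes, and 1 had an unadjusted P under 0.05, where 4.28% of all genes did. This was HOXB6, a trunk patterning factor, with 58.5, 61.7 and 59.0 CPM in Con and 54.7, 49.9 and 51.2 CPM in CPT. The groups did not overlap, and the log2 fold change was -0.20 ± 0.09 (unadjusted P = 0.0303, adjusted p = 1, edgeR). Of its exon bases, 32.9% are shared with HOXB3 or HOXB-AS3. In CPT+GTA+5-Aza against GTA+5-Aza, 0 were called by edgeR or DESeq2 (0% of all genes by edgeR) and 0 had an unadjusted P under 0.05 (2.71% of all genes). For the interaction of CPT and priming, 0 were called by either tool (0% of all genes by edgeR) and 0 had an unadjusted P under 0.05 (2.63% of all genes). By the fold rule 0 HOX genes passed in each of these 3 comparisons, where 1.83%, 1% and 1.78% of all genes did.

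HOXD genes had counts in primed cells alone. All 9 HOXD genes had 0 counts in the 6 unprimed libraries, whereas each of the 6 primed libraries held counts of at least 1 HOXD gene. Summed over the cluster, the counts were 4, 8 and 10 in GTA+5-Aza and 15, 20 and 11 in CPT+GTA+5-Aza, or 0.393 ± 0.175 and 0.866 ± 0.24 CPM. The primed libraries together held 68 HOXD counts (0.622 CPM), 24.4-fold the level of 3 counts over the 6 unprimed libraries (0.0255 CPM). This ratio leaves out the error of the primed counts. As such low counts were not read as separate fragments, it is not a lower bound. The libraries with CPT all lay above those without it among the primed cells, narrowly at the closest (11 against 10 counts). The difference in the sum was not tested, and no single HOXD gene was called for it when the filter on low counts was left out.

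Most of these counts came from the 5′ end of the cluster, HOXD13 and HOXD12, which pattern the ends of the limbs and the hindmost trunk. HOXD13 (ENSG00000128714, chromosome 2 from 176092721 to 176095944, plus strand) had 0, 4 and 0 counts in GTA+5-Aza. In CPT+GTA+5-Aza it had 7, 8 and 5. The 24 counts in all were 8.6-fold the level of 3 counts over the unprimed libraries. HOXD12 had 0, 0 and 8 counts in GTA+5-Aza and 4, 4 and 0 in CPT+GTA+5-Aza, 5.73-fold the same level. Neither ratio is a lower bound. HOXD13 thus was present in all 3 libraries of CPT+GTA+5-Aza, and no other HOXD gene was present in all 3 of a group. HOXD10 had 9 counts in 3 primed libraries, HOXD9 7 counts in 2, and HOXD8, HOXD3 and HOXD1 4 counts each, in 3, 1 and 1 libraries. No exon base of HOXD12 or HOXD13 is shared with another gene, while 60.1% of those of HOXD1 are.

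In the HOXA cluster, HOXA9 and HOXA10 were also near 0. HOXA9, a trunk and blood cell patterning factor, had 0 counts in all 6 unprimed libraries. It had 0, 9 and 4 counts in GTA+5-Aza, and 5, 0 and 8 counts in CPT+GTA+5-Aza. Over the primed libraries HOXA9 had 9.31-fold the level of 3 counts over the unprimed ones, again not a lower bound. Its neighbour HOXA10 had 4 counts in CPT replicate 1 and 0 in the other unprimed libraries, 0, 12 and 8 counts in GTA+5-Aza, and 2, 3 and 3 in CPT+GTA+5-Aza. In both genes primed libraries at 0 or near 0 overlapped the unprimed ones. Of their exon bases, 27% and 26.3% are shared with other genes, among them the antisense gene HOXA10-AS, so their counts are uncertain without a strand setting. HOXA10-AS itself had 2 counts in CPT replicate 1, 0 in the other unprimed libraries, 1, 4 and 8 counts in GTA+5-Aza and 9, 1 and 3 in CPT+GTA+5-Aza. HOXA5 had 10 counts in 3 primed libraries and HOXC12 7 counts in 1. The remaining untested HOX genes with counts in unprimed cells did not all differ in the same direction. Summed over unprimed and over primed libraries, HOXA4 had 4 and 1 counts, HOXA7 26 and 23, and HOXC9 4 and 4. HOXC4 had 3 and 14, and HOXC5 23 and 40.

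In all, 10 of the 32 HOX genes with a count had counts in primed libraries alone and 0 had counts in unprimed libraries alone. Among all protein-coding genes with a count, 5.88% had counts in primed libraries alone and 2.07% in unprimed libraries alone (9.87% and 6.91% of all identifiers). Among other homeobox genes with a count, 20 of 101 had counts in primed libraries alone and 1 in unprimed libraries alone. Counts in at least 3 primed libraries and in no unprimed one were seen for 6 of the 32 HOX genes. The same held for 214 of the 15598 protein-coding genes and 9 of the 101 other homeobox genes with a count. In reverse, 31 protein-coding genes were seen in at least 3 unprimed libraries alone. Only genes near 0 can show such a pattern, and the sets were not matched for level. All 10 HOX genes were too low for the filter on low counts.

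**Figure D4:**
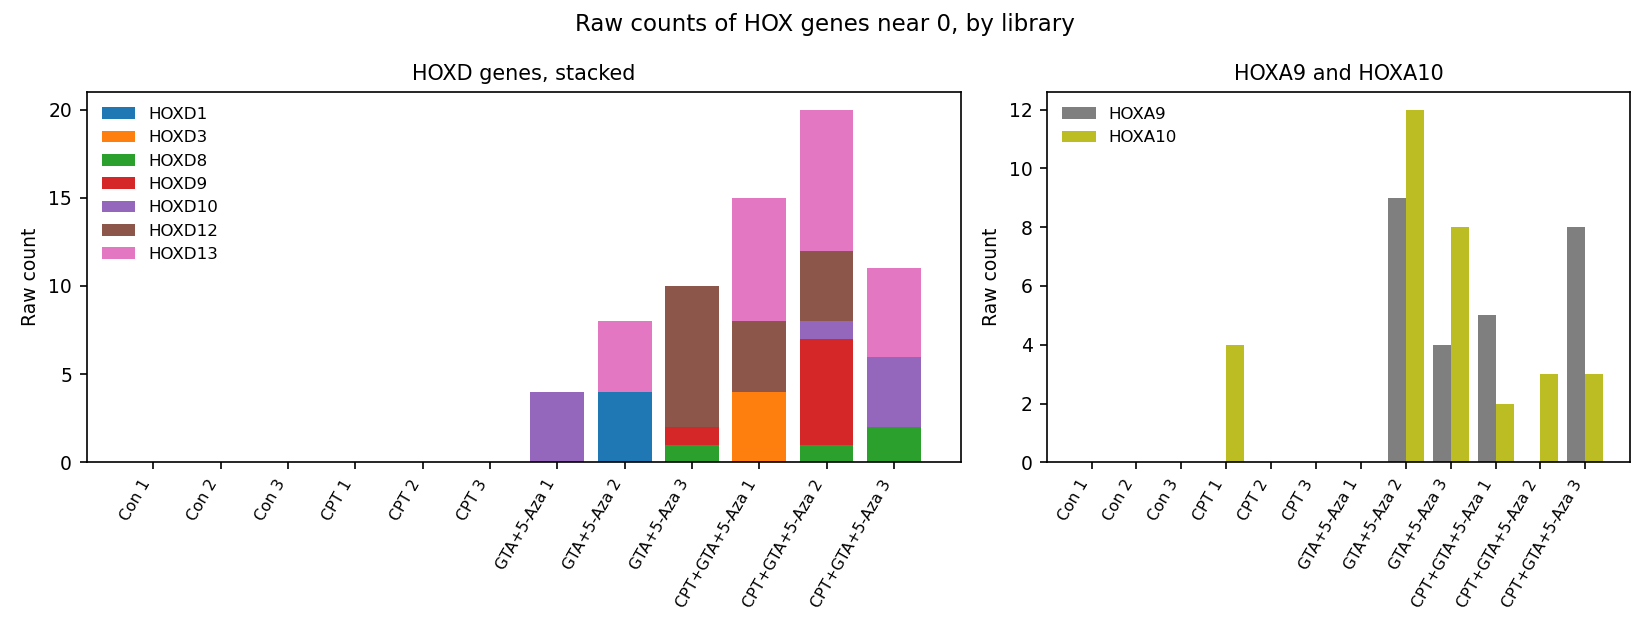
Raw counts by library of the 7 HOXD genes with any count, stacked (left), and of HOXA9 and HOXA10 (right). The 6 unprimed libraries hold no HOXD count and the primed libraries hold 4 to 20, and HOXA10 has 4 counts in 1 unprimed library.

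As 5-Aza is an inhibitor of DNA methylation, the sequences before HOXD genes are shown for 2 genes with counts in primed cells and 1 with none in any library. They are the 250 bases before the RefSeq start on GRCh38.p14, plus strand, 5′ to 3′, with CG pairs in capitals.
HOXD13, chr2:176092471-176092720: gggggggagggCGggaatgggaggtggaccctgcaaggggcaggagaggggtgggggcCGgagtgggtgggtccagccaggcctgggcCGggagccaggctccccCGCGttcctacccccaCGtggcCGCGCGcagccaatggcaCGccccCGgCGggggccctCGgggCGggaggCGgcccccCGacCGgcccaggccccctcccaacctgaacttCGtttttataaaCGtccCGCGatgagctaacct
HOXD12, chr2:176099545-176099794: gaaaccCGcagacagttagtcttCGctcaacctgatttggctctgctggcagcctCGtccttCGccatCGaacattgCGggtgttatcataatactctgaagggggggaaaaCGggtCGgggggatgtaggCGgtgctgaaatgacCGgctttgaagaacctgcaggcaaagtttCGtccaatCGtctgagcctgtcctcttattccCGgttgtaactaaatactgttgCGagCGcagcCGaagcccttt
HOXD4, chr2:176151300-176151549: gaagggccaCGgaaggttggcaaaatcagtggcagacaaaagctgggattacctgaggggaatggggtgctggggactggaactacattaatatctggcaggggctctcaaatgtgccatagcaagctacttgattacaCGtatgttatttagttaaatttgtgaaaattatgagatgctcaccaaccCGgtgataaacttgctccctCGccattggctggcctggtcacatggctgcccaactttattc
These stretches hold 21, 16 and 4 CG pairs. No exon of GENCODE lies in any of them. HOXD11, the other HOXD gene with no count in any library, is not shown. In windows of 300 bases, which also take in bases after the start, HOXD11 held 27 CG pairs. HOXD13 held 24 there, HOXD12 19 and HOXD4 4. HOXD4 thus does not stand for both silent HOXD genes, and whether CG pairs bear on the counts was not tested.

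RefSeq promoter windows of 300 bases (250 before the start and 50 after) were at hand for 20 of the 39 HOX genes, in 27 windows. The 7 genes with counts in primed libraries alone that have a window are HOXD1, HOXD3, HOXD8, HOXD10, HOXD12, HOXD13 and HOXA9, and they held 19 to 36 CG pairs with a median of 24. The 5 untested HOX genes with a window and counts in unprimed libraries held 15 to 31, with a median of 23 over 6 windows, close to that value. HOXC4 and HOXC5 are listed with the same window (15 CG pairs), which is counted for each of them here and among the 27. The median over all 35116 promoters was 14. The 4 genes with no count in any library held 4 (HOXD4), 11 (HOXB1), 27 (HOXD11) and 29 (HOXA6), so that CG-rich windows stood before silent genes as well. The 10 windows of the 4 tested genes with a window, HOXA2, HOXA3, HOXA11 and HOXA13, held 0 to 44. The methylation of these windows was not measured in these data.

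Noncoding genes lie among the HOX genes, and some of them regulate their neighbours. Of 55 such genes in the clusters, 35 were in the count tables, 23 had a count and 9 were tested. None was called in either priming comparison alone, where 17.5% and 17% of all tested genes were. There 1 and 2 of the 9 had an unadjusted P under 0.05 (edgeR), beside 29.4% and 29.3% of all genes. Over all 12 libraries 2 were called, both higher (22.2%, beside 30.9% of all genes). The long noncoding gene ENSG00000260597 (chromosome 12 from 54019910 to 54022589, plus strand) lies between exons of HOXC6 and HOXC4 and overlaps none of them. Its counts were 37, 38 and 36 in Con, 36, 8 and 15 in CPT, 85, 61 and 52 in GTA+5-Aza, and 21, 52 and 42 in CPT+GTA+5-Aza. As for HOXC6, the GTA+5-Aza libraries lay above all Con libraries and the groups with CPT overlapped. The log2 fold change over all libraries was 1.00 ± 0.30 (adjusted p = 0.0126, edgeR's quasi-likelihood test). HOXB-AS1, whose exons are antisense to 3.54% of the exon bases of HOXB2, rose by 0.28 ± 0.10 on the log2 scale over all libraries (adjusted p = 0.0402, edgeR). It had 13.8 to 18.0 CPM in Con and 15.3 to 21.9 CPM in GTA+5-Aza, which overlapped.

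The protein-coding genes within 200 kb of the clusters were also followed. Of 16 such genes 9 were tested, and 1 was called with CPT and over all libraries (11.1%, beside 17% and 30.9% of all genes). Over all libraries 4 of the 9 had an unadjusted P under 0.05, beside 40.1% of all genes (edgeR). The called gene was SKAP2, an adaptor protein gene beyond the 3′ end of HOXA. It had 12.2 to 15.7 CPM in CPT and 15.6 to 19.7 CPM in CPT+GTA+5-Aza, groups that overlapped by 1 library each. The log2 fold change was 0.41 ± 0.14 with CPT (adjusted p = 0.0413, edgeR's quasi-likelihood test) and 0.35 ± 0.10 over all libraries (adjusted p = 0.00665). The median log2 fold change of the 9 neighbours over all libraries was -0.01.

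HOX proteins bind DNA with cofactors of the PBX, MEIS and PKNOX families. Of 9 such genes 6 were tested, and MEIS3 was called in all priming comparisons while the other 5, PBX2, PBX3, PBX4, MEIS2 and PKNOX1, were called in none. This is a share of 16.7% without CPT, with CPT and over all libraries, beside 17.5%, 17% and 30.9% of all tested genes. MEIS3 had counts of 40, 81 and 85 in Con, 46, 77 and 30 in CPT, 289, 242 and 322 in GTA+5-Aza, and 223, 237 and 196 in CPT+GTA+5-Aza. All 6 primed libraries lay above all 6 unprimed ones. Its level rose from 3.36 ± 1.1 to 15.2 ± 3.03 CPM without CPT and from 2.65 ± 1.08 to 12.4 ± 0.909 CPM with CPT, with log2 fold changes of 2.17 ± 0.23 and 2.21 ± 0.24 (adjusted p = 3.39e-07 and 4.39e-07, edgeR's quasi-likelihood test). These differences were larger than that of any called HOX gene. The letters TGACAG, the core that MEIS proteins bind, stood on either strand in 4 of the 27 HOX windows (HOXA2, HOXA4, HOXA13 and HOXD4) and in 15.8% of all promoters. The PBX-HOX letters TGATTNAT stood in 2 of 27 (HOXA2 and HOXD11) and in 2.82% of all promoters. The called genes HOXC6, HOXB2, HOXB3 and HOXB7 have no window, so these letters could not be looked for in their promoters.

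Among 16 genes that act on HOX clusters from above (CDX factors, retinoic acid receptors and enzymes, the MLL methyltransferases with menin, and geminin), 9 were tested. The shares called were 11.1% without CPT, 11.1% with CPT and 22.2% over all libraries. Those over all tested genes were 17.5%, 17% and 30.9%. RXRB, a partner of the retinoic acid and Vitamin D receptors, was called without and with CPT, with log2 fold changes of 0.30 ± 0.09 and 0.36 ± 0.10 (adjusted p = 0.0257 and 0.00869, edgeR's quasi-likelihood test). Its level was 37.3 ± 3.84 CPM in Con, 37.4 ± 2.2 in CPT, 46.1 ± 3.06 in GTA+5-Aza and 48.0 ± 2.69 in CPT+GTA+5-Aza, and all primed libraries lay above all unprimed ones. KMT2A, a methyltransferase that keeps HOX genes active, fell by 0.13 on the log2 scale over all libraries (SE 0.04, adjusted p = 0.0146, edgeR). CDX2, CYP26B1, GMNN, MEN1, RARA, RARG and RXRA were tested and not called.

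**Figure D5:**
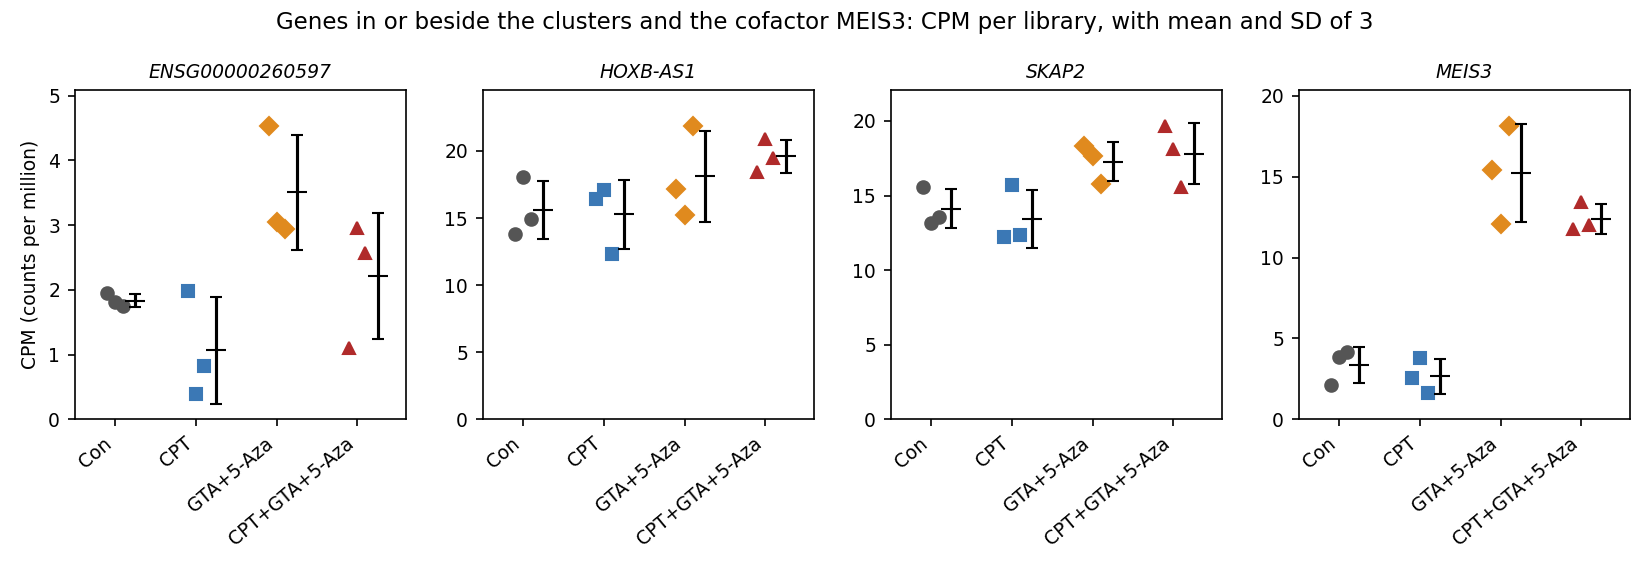
CPM by library and group, with the mean and SD of 3 libraries, of 2 noncoding genes in the HOXC and HOXB clusters (ENSG00000260597 and HOXB-AS1), the HOXA neighbour SKAP2 and the cofactor gene MEIS3, on axes that start at 0. MEIS3 shows a wide gap between unprimed (up to 4.13 CPM) and primed libraries (from 11.8 CPM), and in the others primed and unprimed libraries overlap.

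Other homeobox genes served for comparison. Of 132 listed, 52 were tested, and 13 were called without CPT (25%), 11 with CPT (21.2%) and 21 over all libraries (40.4%). The shares of the HOX genes were 6.25%, 6.25% and 25%, and those of all tested genes 17.5%, 17% and 30.9%. The median log2 fold changes of the other homeobox genes were 0.13, 0.14 and 0.14. Over all libraries ALX4, DLX1, DLX4, DLX6, GBX2, HHEX, HLX, LHX6, LMX1B, MSX1, NKX3-2, ONECUT2, SIX3 and ZFHX2 were among those that rose, and CUX1, SATB1, SHOX2, ZEB1, ZHX1 and ZHX3 fell. POU2F2 fell in the comparison with CPT. Whether the share differs between HOX and other homeobox genes was not tested.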

How the data were processed

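The data are RNA-seq read counts of 12 libraries of MiaPaca2 cells. Per the submitters' processing notes and the study's methods, the authors used Trim Galore for trimming of the paired-end reads, HISAT2 2.2.1 for alignment to GRCh38 and HTSeq for counting. The deposited values are whole-number counts per gene, not normalized. The strand setting and the annotation release are not given in the sources used here. Symbols, positions and exon lengths were taken from GENCODE release 44 on GRCh38, which holds 52181 of 63677 identifiers.

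Counts were tested in R 4.3.3 with edgeR 4.0.16 (filterByExpr on the 4 groups, TMM scaling, glmQLFit and glmQLFTest, 1 fit of all 12 libraries, prior degrees of freedom 18.3), with adjustment over the 17123 genes left. DESeq2 1.42.0 was an alternative, with other scalings, other filters, only the groups of a comparison, a replicate block and leaving out each library. CPM used TMM-scaled totals, and per kb values were divided by the merged exon length. Promoter sequences came from RefSeq (GRCh38.p14).

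The edgeR fit was run on simulated counts with known changes planted only in genes that passed the filter on low counts. That run therefore says nothing of the genes below the filter, such as the HOXD genes, HOXA9 and HOXA10. The HOX genes, the lists around them and the rule for named genes (HOX genes called in any comparison, the highest gene per length of each cluster, genes with 0 counts, and list members called in a priming comparison) were chosen with earlier results of these data known. HOXA9, HOXA10, HOXB6, HOXB9 and other low HOX genes were given values beyond that rule after their values were seen. Replicates of a group differed by more than counting noise (chi-square per degree of freedom 3.88 to 16.6 over 12 pairs), so no library's counts were those of another within sampling noise. Values of 1 HOX gene and 1 other homeobox gene are not reported here, and both stay in the counts and medians.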

Additional observations from a re-analysis of the deposited data

How the results depend on the processing

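The call of HOXC6 in GTA+5-Aza against Con held under all 7 other settings and with each library left out (adjusted p 0.00195 to 0.0305, edgeR or DESeq2), and no result changed sign. For CPT+GTA+5-Aza against CPT, 1 HOX gene was called, against 2 with DESeq2, 2 with a filter of CPM above 1 in at least 3 libraries, 2 with the replicate block (each time HOXB2 and HOXB7) and 4 with library size alone, a scaling that moved the median of all genes to 0.05 in the priming comparisons. Leaving out 1 library gave 0 to 3, with 0 without CPT replicate 1 and without CPT+GTA+5-Aza replicate 2. Over all 12 libraries 4 were called, 2 to 5 with 1 library left out, with 2 without Con replicate 3, and 6 with library size alone. With no filter on low counts 32000 genes were tested, and 8 HOX genes were called over all libraries, HOXA9, HOXA10, HOXD12 and HOXD13 besides the 4, and 2 without CPT (HOXA10 and HOXC6). All 4 added genes rest on at most 12 counts in a library. In the CPT comparisons and the interaction, 0 were called under every setting run.

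By the rule of fold and unadjusted P, no filter gave 5 without CPT (1 with it), 5 with CPT (2), 7 over all libraries (1) and 1 for the interaction (0, HOXA10), and 1 was left with CPT under the stricter filter and 1 with only the groups compared. Leaving out 1 library gave 0 to 2 with CPT, 0 to 2 over all libraries, 0 to 1 in CPT against Con and 0 to 2 for the interaction. With CPT the count was 0 without CPT replicate 1 and without CPT+GTA+5-Aza replicate 1, and HOXC6 over all libraries no longer passed without CPT replicate 3 or CPT+GTA+5-Aza replicate 3. The causes were not tested.

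Same-numbered libraries correlated in their deviations from the group means by -0.08 to 0.12, and 1 of 18 pairs was over 0.1, so the numbers did not pair the libraries. The replicate block changed no other call. Depth limits the HOXD, HOXC12, HOXA4, HOXA5, HOXA9 and HOXA10 values, which lie at or near 3 counts in many libraries.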
